A study of Mus musculus with 8 samples.

Results

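The antioxidant defence set holds 10 genes that encode enzymes which remove reactive oxygen species, or regulate their removal: *Sod1*, *Sod2*, *Cat*, *Gpx1*, *Gpx3*, *Gpx4*, *Prdx3*, *Txn2*, *Nfe2l2* and *Hmox1*. The genes were picked by symbol, and all 10 were found among the 26590 gene symbols of the deposited table, on 15 rows, each row a UCSC known-gene transcript. Where a gene has several rows, values are those of its most abundant one, by the average of the genotype means, unless another row is named.

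Total RNA of fetal hearts was sequenced after removal of ribosomal RNA, in 4 *Dio3+/+* hearts and 4 *Dio3-/-* hearts, each from an individual fetus of the C57BL/6J strain. *Dio3-/-* fetuses carry a germline inactivation of *Dio3* in all tissues. *Dio3* encodes the type 3 deiodinase, a selenoenzyme that inactivates thyroid hormone, and these fetuses are a model of thyroid hormone excess, so the comparison asks how the excess relates to cardiac transcript levels. The sample titles give E13.5 for all 8 hearts, whereas E18.5 stands in the age field of 2 *Dio3-/-* hearts (numbers 3 and 4), and the Methods name a later day than the titles. For each row the authors deposited genotype means, taken as RPKM (mapped reads per length of transcript and per library size), and coefficients of variation, that is, SD over mean. Values for single hearts, and values without the hearts of doubtful age, could therefore not be given, and the table holds no depth for single libraries. Below, the SD is the mean multiplied by the coefficient of variation, with n = 4 hearts per genotype, and a log2 ratio is the difference of log2(RPKM + 0.5), *Dio3-/-* minus *Dio3+/+*.

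Superoxide, a by-product of mitochondrial respiration, is converted to hydrogen peroxide by the superoxide dismutases. The peroxide is then reduced by catalase, by the glutathione peroxidases and by the peroxiredoxins, which are recharged by thioredoxins. NRF2, the product of *Nfe2l2*, is a transcription factor that induces many of these genes under oxidative stress, and heme oxygenase 1 (*Hmox1*) is a widely used readout of its activity. Thyroid hormone is known to raise oxygen consumption in the heart. Catalase and glutathione peroxidase 1 are also abundant in red blood cells, and heme oxygenase 1 in macrophages that take up red cells.

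Some properties of the whole series bear on these genes. *Dio3* had 0.35 RPKM ± 0.431 in *Dio3+/+* against 0.13 RPKM ± 0.0988 in *Dio3-/-* hearts, below the limit for testing, so this transcript gave no usable check of the genotype labels. All 7 cardiomyocyte markers were present in both genotypes, led by *Actc1* (4778 and 5638 RPKM) and *Tnnt2* (1212 and 1281 RPKM), and by limma 1 of them passed, *Ryr2*, a calcium release channel that was higher in *Dio3-/-* hearts (adjusted *P* = 0.0231). The means of all 7 were higher in *Dio3-/-* hearts (median log2 ratio 0.24), 5 of them at an unadjusted *P* value under 0.05 by limma. Of 14657 tested genes, 9273 had a log2 ratio above 0, and 15.2% were higher at this unadjusted limit. The design text calls the fetuses male, but *Xist*, which is transcribed from the inactive X chromosome of females, had 35.6 RPKM ± 35.3 in *Dio3+/+* against 40.0 RPKM ± 22.0 in *Dio3-/-* hearts. The median coefficient of variation over 14657 tested genes was 0.09 in *Dio3+/+* and 0.06 in *Dio3-/-* hearts.

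The glutathione peroxidases of the set are selenoproteins like DIO3 itself, and their coding sequences carry an in-frame TGA that is read as selenocysteine at the active site. The stretches below show that codon, in capitals, with 30 coding bases on each side, because the 3 genes share this feature and yet differed in their values. They come from GENCODE M21 transcripts (GRCm38, plus strand, matched by symbol). The codon lies at chr9:108339451-108339453 in exon 1 of 2 of *Gpx1*, at chr11:54907256-54907258 in exon 2 of 5 of *Gpx3*, and at chr10:80054737-80054739 in exon 3 of 7 of *Gpx4*.
Gpx1: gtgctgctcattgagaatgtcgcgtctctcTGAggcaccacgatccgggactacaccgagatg
Gpx3: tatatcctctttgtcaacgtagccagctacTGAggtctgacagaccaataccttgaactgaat
Gpx4: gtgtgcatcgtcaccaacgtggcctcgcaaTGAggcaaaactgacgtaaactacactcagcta
Of these 63 bases, 35 were identical between *Gpx1* and *Gpx4*, 29 between *Gpx3* and *Gpx4*, and 27 between *Gpx1* and *Gpx3*.

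Promoter windows (250 bases before to 50 after a transcription start, RefSeq, GRCm38.p6) were matched by symbol for 9 of the 10 genes, 12 windows in all. *Hmox1* had no entry. Each window was searched on both strands for TGACNNNGC, the core of the antioxidant response element to which NRF2 binds, and for AGGTCA, the half-site bound by thyroid hormone receptors and other nuclear receptors. TGACNNNGC was found in 2 of 12 windows, those of *Nfe2l2* and *Sod1*, and in 12.4% of 32851 windows of the whole table. AGGTCA was found in 3 of 12 windows, of *Cat*, *Gpx4* and *Prdx3*, and in 16.3% of all windows. A match of these letters describes the sequence and is not evidence of binding. The windows of *Cat* and *Gpx1*, a pair whose values were lower in mean in *Dio3-/-* hearts, and of *Nfe2l2*, which encodes the regulator, are printed 5′ to 3′ on the strand of the gene with matches in capitals. They lie at chr2:103485104-103485403 (minus strand), chr9:108338830-108339129 (plus strand) and chr2:75704614-75704913 (minus strand). The match in *Cat* is AGGTCA, the match in *Nfe2l2* is the antioxidant response element core, and *Gpx1* holds neither motif in this window.
Cat: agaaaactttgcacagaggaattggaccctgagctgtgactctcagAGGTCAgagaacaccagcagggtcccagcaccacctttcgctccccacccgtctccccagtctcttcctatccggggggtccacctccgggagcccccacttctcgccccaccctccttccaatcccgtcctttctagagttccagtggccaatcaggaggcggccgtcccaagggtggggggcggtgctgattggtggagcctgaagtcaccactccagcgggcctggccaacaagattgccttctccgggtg
Gpx1: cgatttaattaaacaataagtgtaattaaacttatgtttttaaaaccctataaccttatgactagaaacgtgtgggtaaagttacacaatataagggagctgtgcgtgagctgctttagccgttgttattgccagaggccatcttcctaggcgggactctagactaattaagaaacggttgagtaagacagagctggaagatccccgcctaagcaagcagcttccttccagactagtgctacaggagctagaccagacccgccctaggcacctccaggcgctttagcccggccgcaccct
Nfe2l2: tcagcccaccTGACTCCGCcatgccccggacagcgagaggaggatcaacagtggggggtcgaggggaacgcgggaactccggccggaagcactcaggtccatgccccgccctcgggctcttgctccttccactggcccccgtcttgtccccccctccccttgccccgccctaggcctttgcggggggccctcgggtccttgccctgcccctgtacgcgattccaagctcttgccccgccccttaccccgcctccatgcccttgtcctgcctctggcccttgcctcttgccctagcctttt

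All 10 genes were well expressed in both genotypes. Their means exceeded those of 78.4% to 98.9% of the tested genes in *Dio3+/+* hearts and of 73.7% to 98.8% in *Dio3-/-* hearts. In *Dio3+/+* hearts the order by RPKM was *Gpx3*, *Gpx1*, *Sod1*, *Gpx4*, *Cat*, *Hmox1*, *Sod2*, *Txn2*, *Prdx3* and *Nfe2l2*. The ranges of mean ± SD overlapped between the neighbours *Gpx3* and *Gpx1*, and along the run from *Hmox1* through *Sod2* and *Txn2* to *Prdx3*. *Hmox1* stood at rank 6 in *Dio3+/+* and at rank 10 in *Dio3-/-* hearts, where its range overlapped that of *Nfe2l2*. *Gpx1* had rank 2 in both, and in *Dio3-/-* hearts its range overlapped that of *Sod1*.

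**Figure D1:**
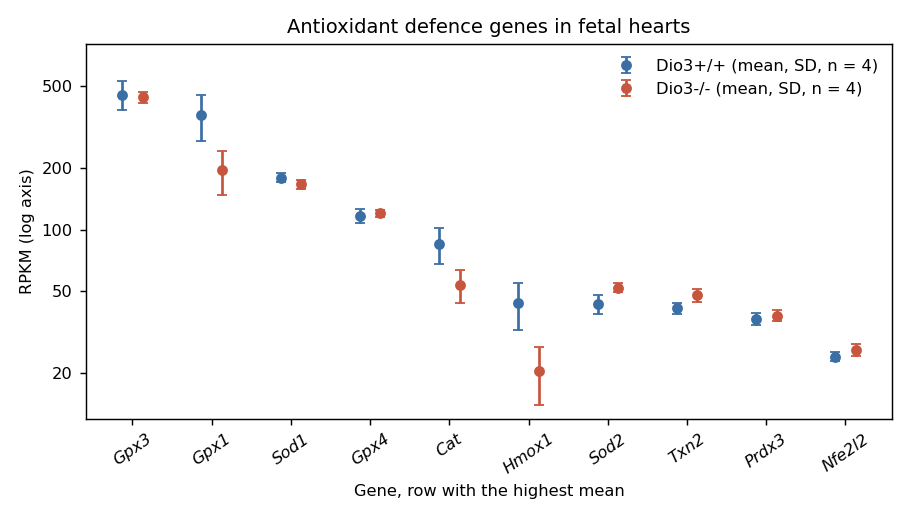
Level of each gene in RPKM (log axis) in 4 *Dio3+/+* hearts (blue) and 4 *Dio3-/-* hearts (red); points are the deposited means and bars 1 SD. The bars of *Gpx1*, *Cat*, *Hmox1*, *Sod2* and *Txn2* do not overlap between genotypes, the first 3 lower and the last 2 higher in *Dio3-/-* hearts.

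Between genotypes, 1 of the 10 genes, *Hmox1*, passed an adjusted *P* value of 0.05 by limma and was lower in *Dio3-/-* hearts, and none was higher. The adjustment was made over all 32703 tested rows. Over all tested genes, 2.29% passed in either direction and 0.382% passed as lower. At an unadjusted *P* value under 0.05, 3 of the 10 genes were lower (*Hmox1*, *Gpx1* and *Cat*) and 2 were higher (*Sod2* and *Txn2*), by limma as well as by an unmoderated test of unequal variances from the same summaries, and the unmoderated test left 0 after adjustment. Over all tested genes the same unadjusted limit was met as lower by 4.46% with limma and 2.7% with the unmoderated test, and as higher by 15.2% and 13.7%, so 2 of 10 higher was near the background. The mean ± SD ranges of the genotypes did not overlap for these 5 genes, and for 15.5% of all tested genes. A decrease of more than 1.5-fold on the log2(RPKM + 0.5) scale, whatever its *P* value, was seen for 3 of the 10 genes and for 2.24% of all tested genes. The 10 genes were chosen with earlier results of these data known, so these shares are a description and not a test. The median log2 ratio was −0.0017 over the 10 genes and 0.039 over all tested genes.

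*Hmox1*, which encodes the inducible enzyme that breaks down heme, had 43.8 RPKM ± 11.4 in *Dio3+/+* hearts. In *Dio3-/-* hearts it had 20.4 RPKM ± 6.32. It fell by 1.09 on the log2 scale (SE 0.23, 95% interval −1.60 to −0.57, adjusted *P* = 0.0481 by limma), a ratio of the means of 2.15. The value lies close to the threshold, and 5 alternatives, among them no mean-variance trend (adjusted *P* = 0.0636) and the unmoderated test (0.217), put it above. *Hmox2*, the constitutive heme oxygenase, did not pass the test, with 45.5 RPKM ± 1.82 and 47.5 RPKM ± 2.85 (log2 ratio 0.06, adjusted *P* = 0.602 by limma).

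*Gpx1*, which encodes the glutathione peroxidase of cytosol and mitochondria, had 359.8 RPKM ± 90.0 in *Dio3+/+* against 195 RPKM ± 46.7 in *Dio3-/-* hearts. The log2 ratio was −0.88 (SE 0.20, 95% interval −1.34 to −0.43, adjusted *P* = 0.0581 by limma), just short of the threshold. *Cat*, which encodes the peroxisomal catalase, had 84.8 RPKM ± 17.0 and 53.7 RPKM ± 9.66. Its log2 ratio was −0.66 (SE 0.16, 95% interval −1.01 to −0.30, adjusted *P* = 0.0632 by limma). Neither interval included 0. Both genes passed when only rows with a mean over both genotypes above 5 RPKM were tested (adjusted *P* = 0.0442 for *Gpx1* and 0.0493 for *Cat* by limma). For each gene, however, 9 of 11 alternatives left it above the threshold. Among these were no expression filter (adjusted *P* = 0.0955 for *Gpx1* and 0.102 for *Cat* by limma) and the unmoderated test (0.2426 and 0.2425).

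The other glutathione peroxidases of the set had similar means in both genotypes. *Gpx3*, the secreted form and the highest gene of the set, had 453 RPKM ± 72.5 in *Dio3+/+* against 439.5 RPKM ± 26.4 in *Dio3-/-* hearts, a log2 ratio of −0.04 (95% interval −0.28 to 0.19). *Gpx4*, which reduces lipid peroxides in membranes, had 117 RPKM ± 9.35 and 120.2 RPKM ± 4.81, a log2 ratio of 0.04 (95% interval −0.10 to 0.18), with the same log2 ratio of 0.04 on its second row. Adjusted *P* values by limma were 0.870 for *Gpx3* and 0.785 for *Gpx4*, and both intervals exclude a 1.5-fold change. By the genotype means, *Gpx1* made up 36.9% of the sum over 8 glutathione peroxidase genes in *Dio3+/+* and 24.2% in *Dio3-/-* hearts. The share of *Gpx3* was 46.4% and 54.7%, and that of *Gpx4* 11.98% and 14.97%. The sum itself was 976 and 803 RPKM. These shares have no error, because genotype means do not hold the covariance between genes.

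**Figure D2:**
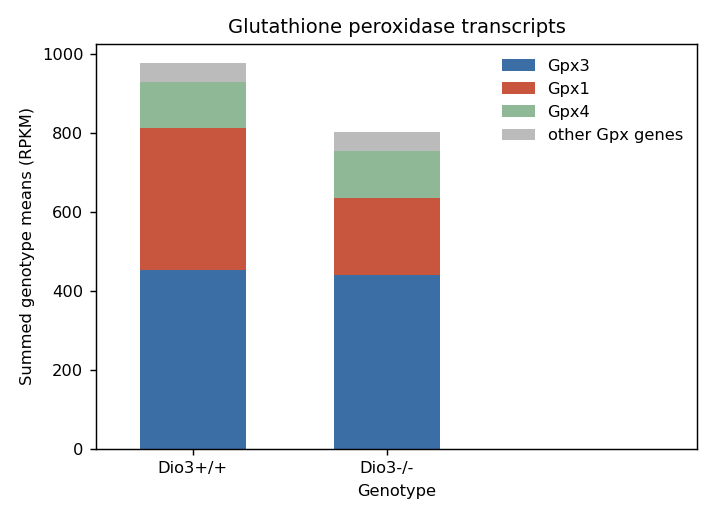
Summed genotype means in RPKM of the 8 glutathione peroxidase genes in *Dio3+/+* and *Dio3-/-* hearts, stacked by gene. The *Gpx1* part is 36.9% of the left bar and 24.2% of the right bar, while the *Gpx3* and *Gpx4* parts have nearly the same height in both.

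The 3 genes whose products are found mainly in mitochondria, *Sod2*, *Txn2* and *Prdx3*, had higher means in *Dio3-/-* hearts, and by limma 0 of them passed after adjustment, with 2 at an unadjusted *P* value under 0.05. *Gpx1* and *Gpx4*, whose products are found there in part, are given above. Over the whole table, 9273 of 14657 tested genes had a log2 ratio above 0, and 15.2% were higher at this unadjusted limit by limma. The cardiomyocyte markers also had higher means in *Dio3-/-* hearts, and their part in the values of these 3 genes was not tested. *Sod2*, which encodes the manganese superoxide dismutase of the mitochondrial matrix, had 43.4 RPKM ± 4.77 in *Dio3+/+* against 52.2 RPKM ± 2.61 in *Dio3-/-* hearts. The log2 ratio was 0.26 (SE 0.08, 95% interval 0.09 to 0.44, unadjusted *P* = 0.0070 and adjusted *P* = 0.104 by limma), and 0.18 on its second row (adjusted *P* = 0.201 by limma). *Txn2*, which encodes mitochondrial thioredoxin, had 41.3 RPKM ± 2.48 and 47.9 RPKM ± 3.35. Its log2 ratio was 0.21 (SE 0.06, 95% interval 0.07 to 0.35, adjusted *P* = 0.110 by limma), and its other rows, which may share reads with the first, gave 0.21 and 0.20. *Prdx3*, the peroxiredoxin that mitochondrial thioredoxin recharges, had 36.7 RPKM ± 2.57 and 38.1 RPKM ± 2.29, a log2 ratio of 0.06 (95% interval −0.09 to 0.20, adjusted *P* = 0.692 by limma). With their small SDs these intervals leave room for increases of at most 1.35-fold for *Sod2*, 1.28-fold for *Txn2* and 1.15-fold for *Prdx3*.

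The cytosolic counterparts had a lower and a similar mean. *Sod1*, which encodes the copper-zinc superoxide dismutase, had 179 RPKM ± 8.93 in *Dio3+/+* against 166 RPKM ± 8.29 in *Dio3-/-* hearts, a log2 ratio of −0.11 (95% interval −0.23 to 0.02, adjusted *P* = 0.340 by limma). *Txn1*, cytosolic thioredoxin, had 83.5 and 84.0 RPKM. By the means, *Sod2* made up 19.5% of the sum of *Sod1* and *Sod2* in *Dio3+/+* and 23.9% in *Dio3-/-* hearts, *Txn2* 33.1% and 36.3% of the sum of both thioredoxins, and *Prdx3* 6.18% and 7.15% of the sum over 6 peroxiredoxins. That last sum was itself lower in *Dio3-/-* hearts, with 593 and 533 RPKM, and its largest part, *Prdx2*, had 291 and 224 RPKM. Whether the genes within each sum differed in their response was not tested.

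*Nfe2l2*, which encodes NRF2, was the lowest of the set in *Dio3+/+* hearts, with 24.1 RPKM ± 1.20 against 25.9 RPKM ± 1.82 in *Dio3-/-* hearts. The log2 ratio was 0.11 (95% interval −0.03 to 0.24, adjusted *P* = 0.394 by limma). Its second row, with 0.69 and 0.87 RPKM, was the only 1 of the 15 rows below the limit for testing. Of the 14 rows tested, 1 passed (*Hmox1*), against 2.15% of all tested rows.

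**Figure D3:**
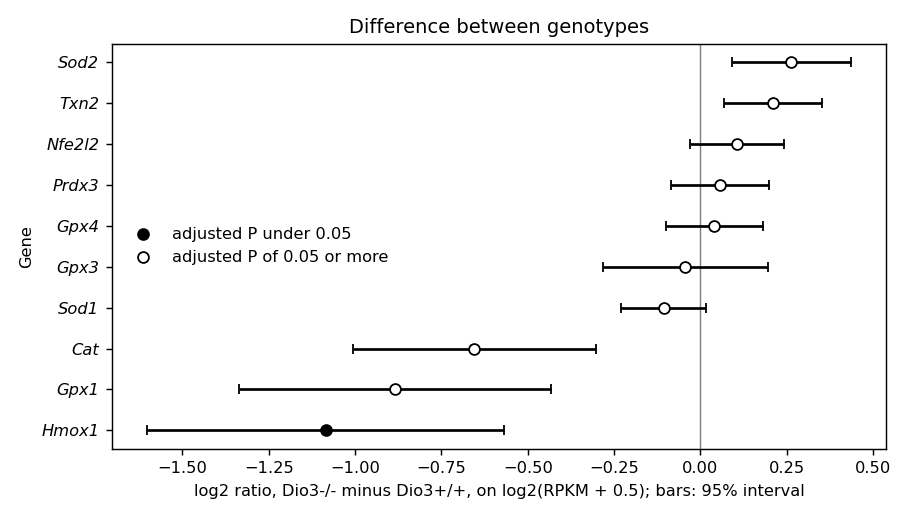
Log2 ratio of each gene (*Dio3-/-* minus *Dio3+/+*, log2(RPKM + 0.5) scale) with its 95% interval from limma, 4 hearts per genotype; a filled point has an adjusted *P* value under 0.05. *Hmox1* is the only filled point at −1.09, with *Gpx1* and *Cat* beside it at −0.88 and −0.66, and the other 7 genes lie between −0.11 and 0.26.

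The 3 genes with the largest differences were also those that varied most between hearts of the same genotype. The coefficients of variation in *Dio3+/+* and *Dio3-/-* hearts were 0.26 and 0.31 for *Hmox1*, 0.25 and 0.24 for *Gpx1*, and 0.20 and 0.18 for *Cat*. The other 7 genes ranged from 0.05 to 0.16 in *Dio3+/+* and from 0.04 to 0.07 in *Dio3-/-* hearts. A coefficient of at least 0.18 in both genotypes, a limit set at the lowest value of these 3 genes after it was seen, was found for 5.06% of all tested genes.

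Red cell transcripts also had lower means in *Dio3-/-* hearts and varied between hearts. Of 8 erythroid markers 7 were found in the table, none at 0, with *Epb42* matched by its older symbol. All 7 had lower means in *Dio3-/-* hearts, with log2 ratios from −1.55 to −0.80. Their summed level was 37288 RPKM in *Dio3+/+* against 12753 RPKM in *Dio3-/-* hearts, a ratio of 2.92, with coefficients of variation from 0.27 to 0.40 and from 0.46 to 0.61. *Hbb-y*, an embryonic β-like globin, had 29101 and 9909 RPKM, and *Hba-x*, an embryonic α-like globin, had 7389 and 2530 RPKM. *Hbb-bh1*, also an embryonic β-like globin, was the only one of them to pass the test (log2 ratio −1.51, adjusted *P* = 0.0468 by limma), and all 7 had an unadjusted *P* value under 0.05. That limit was met as lower by 4.46% of all tested genes. Fewer red cells and less of these RNAs per cell cannot be told apart in whole hearts, and the part of red cells in the values of *Hmox1*, *Gpx1* and *Cat* was not tested.

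Macrophage markers had similar means in both genotypes. All 8 were in the table, none at 0, with a summed level of 43.1 RPKM in *Dio3+/+* against 41.5 RPKM in *Dio3-/-* hearts, and the 7 tested had log2 ratios from −0.18 to 0.03, 0 of them with an adjusted or an unadjusted *P* value under 0.05 by limma. The highest were *C1qc*, with 9.45 and 9.62 RPKM, and *C1qb*, with 8.10 and 8.30 RPKM. Hepatocyte markers, which the heart should lack, had higher means in *Dio3-/-* hearts. The summed level of all 8 was 22.9 RPKM in *Dio3+/+* against 123 RPKM in *Dio3-/-* hearts, led by *Afp* (5.11 and 44.6 RPKM) and *Alb* (5.16 and 36.1 RPKM), none at 0, with coefficients of variation from 0.18 to 1.41 and from 0.68 to 1.26. By limma 0 of the 8 passed after adjustment and 8 had an unadjusted *P* value under 0.05, a limit met as higher by 15.2% of all tested genes. The part of hepatocytes in the values of the antioxidant genes was not tested. Endothelial markers, led by *Cdh5* and *Pecam1*, summed to 241 and 258 RPKM. Those of fibroblasts and epicardium, led by *Col3a1* and *Col1a1*, summed to 656 and 601 RPKM, and by limma 0 of these 12 genes passed, with 3 at an unadjusted *P* value under 0.05. That limit was met in either direction by 19.7% of all tested genes.

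**Figure D4:**
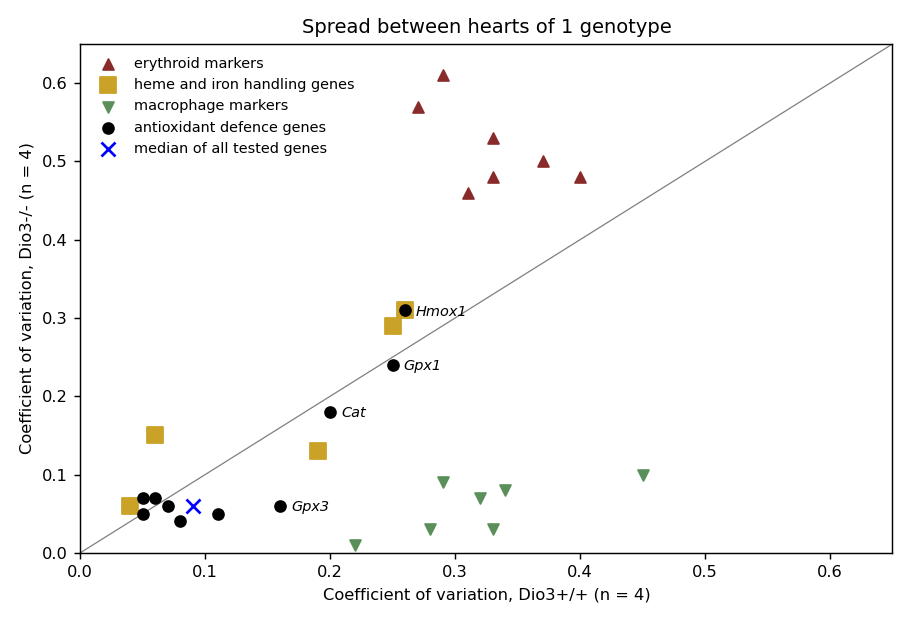
Coefficient of variation of each gene between the 4 *Dio3+/+* hearts (x axis) and the 4 *Dio3-/-* hearts (y axis), with the line of equal spread and the median of all tested genes (0.09 and 0.06); squares are heme and iron handling genes, and 1 of them, *Blvrb*, lies under *Hmox1*. *Hmox1*, *Gpx1* and *Cat* lie apart from the other antioxidant genes, between those and the erythroid markers (0.27 to 0.40 and 0.46 to 0.61), and the macrophage markers vary in *Dio3+/+* hearts but little in *Dio3-/-* hearts.

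The wider antioxidant system was described with 13 lists of 70 further genes, all found in the table and 64 above 1 RPKM in a genotype. By limma 2 of the 64 passed, both lower in *Dio3-/-* hearts (0.382% of all tested genes were lower), and 0 were higher. At an unadjusted *P* value under 0.05, 11 were lower and 4 higher by limma, and 10 and 4 by the unmoderated test, which left 0 after adjustment. The share of 4 in 64 higher lies below the 15.2% of all tested genes, and that of 11 in 64 lower lies above the 4.46%. The lists were chosen with earlier results of these data known, so these shares are a description and not a test. The median log2 ratio of the 64 was 0.016. The list of heme and iron handling genes stood lowest, with a median of −0.66.

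*Nqo1*, a quinone reductase and a standard NRF2 target, was 1 of the genes that passed. It had 3.76 RPKM ± 0.79 in *Dio3+/+* against 1.83 RPKM ± 0.549 in *Dio3-/-* hearts, a log2 ratio of −0.87 (SE 0.18, adjusted *P* = 0.0462 by limma). The others in its list did not pass, and the highest were *Gstp1* (log2 ratio 0.07) and *Gsta4* (−0.08), both glutathione transferases. The other gene that passed was *Ftl1*, the ferritin light chain, with 1380.2 RPKM ± 262 and 871 RPKM ± 113, a log2 ratio of −0.66 (SE 0.14, adjusted *P* = 0.0476 by limma). Both calls lie close to the threshold, and the same 5 alternatives that put *Hmox1* above it did so for both (adjusted *P* up to 0.0822 for *Nqo1* and 0.0930 for *Ftl1* by limma, and 0.178 and 0.232 by the unmoderated test).

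*Fth1*, the ferritin heavy chain, had 1598 RPKM ± 399.5 in *Dio3+/+* against 863 RPKM ± 250.3 in *Dio3-/-* hearts (log2 ratio −0.89, adjusted *P* = 0.0723 by limma). *Blvrb*, a biliverdin reductase known from red cells and named after its value was seen, had 70.3 RPKM ± 18.3 and 39.3 RPKM ± 12.2 (log2 ratio −0.83, adjusted *P* = 0.0934 by limma). *Hmox2* and *Blvra*, in the same list, had log2 ratios of 0.06 and 0.13. Ferritin genes have near-identical copies in the mouse genome, and since only uniquely mapping reads were used, their levels are uncertain.

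Among the enzymes of glutathione supply, *Gclm*, the modifier subunit of the rate-limiting ligase, had 41.6 RPKM ± 11.2 in *Dio3+/+* against 23.2 RPKM ± 6.74 in *Dio3-/-* hearts (log2 ratio −0.83, adjusted *P* = 0.0872 by limma). Its catalytic partner *Gclc* had a log2 ratio of −0.16 and *Gsr*, glutathione reductase, of 0.06. Of the peroxiredoxins, *Prdx2*, abundant in red cells, had 291 RPKM ± 37.8 and 224 RPKM ± 15.7 (log2 ratio −0.38, adjusted *P* = 0.0671 by limma), and *Prdx1* had 145 and 149 RPKM (log2 ratio 0.04). Of the regulators of NRF2, *Sqstm1*, which encodes an adaptor that binds the NRF2 inhibitor KEAP1, had 115 RPKM ± 19.5 and 85.1 RPKM ± 9.36 (log2 ratio −0.43, adjusted *P* = 0.0946 by limma). *Mafg*, in the same list, had 11.4 RPKM ± 0.227 and 9.67 RPKM ± 0.677 (log2 ratio −0.22, adjusted *P* = 0.0752 by limma). *Keap1* and *Cul3*, which form the ligase that degrades NRF2, each had a log2 ratio of 0.12. Over the 7 genes of that list, 3 log2 ratios were above 0 and 4 below. None of these genes passed the test.

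The remaining lists held no gene that passed by limma. The list of thioredoxins, reductases and glutaredoxins had log2 ratios from −0.12 to 0.28 over 9 genes, with *Txnip*, an inhibitor of thioredoxin, at 89.7 and 89.5 RPKM. The ratio of 0.28 was that of *Txnrd3*, with 3.26 and 4.07 RPKM (adjusted *P* = 0.0891 by limma). The list of selenocysteine insertion, the step that both the glutathione peroxidases and DIO3 need, lay between 0.00 and 0.16 over 6 genes. The highest were *Selenop* (69.1 and 69.2 RPKM), which encodes a secreted selenium carrier and is itself a selenoprotein rather than part of the insertion machinery, and *Sephs2* (16.3 and 18.1 RPKM), which makes the selenium donor. The genes of NADPH supply ranged from −0.17 to 0.12, led by *Idh2* (536 and 581 RPKM) and *Nnt* (35.8 and 38.1 RPKM). Both encode mitochondrial enzymes, and these RNA levels do not show whether a functional enzyme was made in this strain. The methionine sulfoxide reductases and sestrins ranged from −0.10 to 0.24, with *Park7* at 52.4 and 55.4 RPKM and *Msrb3* at 35.1 and 41.4 RPKM. *Msrb3* was near the threshold on the higher side (log2 ratio 0.23, adjusted *P* = 0.0671 by limma). The oxidant-producing enzymes ranged from −0.21 to 0.10, led by *Cyba* (12.2 and 13.1 RPKM) and *Maoa* (7.54 and 7.37 RPKM). *Mt1* and *Mt2*, the metallothioneins, did not pass the test. *Mt1* had 69.9 and 83.6 RPKM, and *Mt2* had 14.8 and 23.3 RPKM with a coefficient of variation of 0.28 and 0.78. *Gpx8* and *Gpx7*, peroxidases of the endoplasmic reticulum without selenocysteine in the mouse, had log2 ratios of 0.07 and 0.01, and *Ccs*, the copper chaperone of SOD1, of −0.04. *Sod3*, the extracellular dismutase, was below the limit for testing with 0.18 and 0.13 RPKM.

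**Figure D5:**
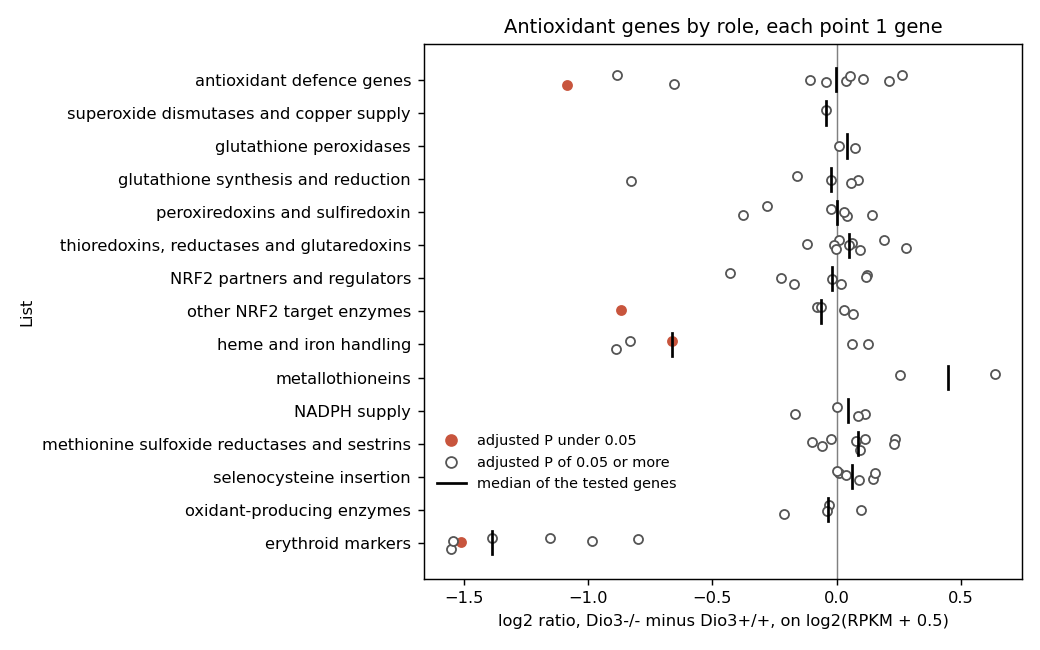
Log2 ratio (*Dio3-/-* minus *Dio3+/+*, log2(RPKM + 0.5) scale) of each tested gene, by role, with the 10 antioxidant defence genes at the top and 7 erythroid markers at the bottom; vertical bars are medians and red points have an adjusted *P* value under 0.05 by limma. Most genes lie near 0, and the points below −0.6 outside the erythroid row are *Hmox1*, *Gpx1*, *Cat*, *Gclm*, *Nqo1*, *Fth1*, *Ftl1* and *Blvrb*.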

How the data were processed

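Hearts of 4 *Dio3+/+* and 4 *Dio3-/-* mouse fetuses were compared. Reads were aligned with NovoAlign (2.08), uniquely mapping reads were kept, and each sample was scaled linearly to the smallest one by the authors, who deposited genotype means, taken as RPKM because the Methods filter in that unit, and the coefficient of variation of each genotype, a ratio. The build is not given in the sources used here, and the authors' q values and fold changes were not used.

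From these summaries log2(mean + 0.5) and its SD by the delta method were calculated and tested with limma (3.58.1, R 4.3.3) with a mean-variance trend, 6 residual degrees of freedom and 3.52 prior degrees of freedom. Benjamini-Hochberg adjustment ran over the 32703 rows whose mean exceeded 1 RPKM in either genotype. Welch's test was the unmoderated alternative. Both were run on simulated rows, drawn independently and with the same coefficient of variation in both genotypes. Of 200 changed rows limma called 165, with 9 false calls, and Welch's test called 99, with 2 false calls. The deposited coefficients differ between genotypes and dependence between genes was not simulated, so these numbers need not hold for the hearts.

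Genes were named by these rules: all members, genes of the wider lists that passed, and the 2 highest of each list. *Gclc*, *Keap1*, *Hmox2*, *Blvra*, *Blvrb*, *Sod3*, *Txnrd3*, *Mafg*, *Cd163*, *Cd68*, *Mrc1* and others given beside a related gene were added after their values were seen. The members and lists were chosen with earlier results of these data known. Older symbols were matched where needed, and *Hba-a1* was not matched. Python (3.11.15), numpy (2.4.6), pandas (2.3.3) and matplotlib (3.10.9) were used for summaries and figures.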

Additional observations from a re-analysis of the deposited data

How the results depend on the processing

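Alternatives were pseudocounts of 0.1 and 1, no expression filter, a mean over both genotypes above 5 RPKM, no mean-variance trend, Welch's test from the summaries, 1 row per gene, centring on the median log2 ratio, coefficients of variation raised by 0.005, leaving out rows with a coefficient above 0.5, a log-normal SD, and the other rows of a gene. Over 114 values for the 10 genes under these alternatives, 0 changed direction and 105 kept their side of the threshold. *Hmox1* (adjusted *P* by limma from 0.0287 to 0.0830, and 0.217 by Welch's test) was above the threshold in 5, so the number of the 10 genes that were lower, 1 in the text, was 0 with Welch's test, centring, raised coefficients, no filter or no trend. It was 3, with *Gpx1* and *Cat*, with means above 5 RPKM or without rows above 0.5. The number of lower genes in the wider lists, 2 in the text, was 0 under the same 5 alternatives and 1 with means above 5 RPKM, which leaves *Nqo1* untested. Without rows above 0.5 it was 3. The number higher was 0 in both under every alternative run. Lower genes over the whole table numbered 56, from 1 with Welch's test to 96 without rows above 0.5, and higher genes 280, from 25 with Welch's test to 399 without rows above 0.5. Leaving out single hearts was not run, since the table holds genotype summaries. No paired analysis was possible because the same summaries carry no replicate numbers. The table holds no depth per heart, and rounding of the coefficients limits the precision of small SDs.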
